A study of Mus musculus with 27 samples.

Results

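The enzymes described here remove electrophiles, peroxides, superoxide and aldehydes from cells. They were followed in NIH/3T3, an immortal line of mouse embryo fibroblasts, for 48 h after a pulse of forskolin, a drug that activates adenylyl cyclase and so raises cyclic AMP. The members were the probe sets whose single gene symbol in the platform annotation named a glutathione transferase, glutathione peroxidase, peroxiredoxin, aldehyde dehydrogenase, aldo-keto reductase, superoxide dismutase or catalase, or was Gsr, Gss, Txn1, Cryz or Cbr1. By this rule 74 of the 12488 probe sets were members, and they stood for 52 genes. The rule used names and no measured value, but it was chosen with earlier results of these data known.

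All cultures had the same genotype and the same treatment, 15 µM forskolin for 2 h without serum, followed by rinsing and serum-free medium. They differed in the time of harvest, which was 0 h (the end of the pulse) and then every 6 h to 48 h. Each of the 9 time points was measured on 3 Affymetrix mouse U74v2 arrays, 1 from each of 3 experiments, described in the labels as biological replicates. The 0 h arrays are therefore cells that had just had forskolin and a loss of serum, and unpulsed cultures were not analysed here. The p-values of the main fit measure the spread between the 3 experiments of this 1 line at the same time point. Those of the fit with the experiment number as a block measure the spread left once differences between experiments are taken out. In such bulk RNA fewer cells of a type and less RNA per cell cannot be told apart.

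As background, glutathione transferases join the tripeptide glutathione to electrophilic compounds, in the cytosol or, for the microsomal family, in membranes. Glutathione peroxidases, peroxiredoxins and catalase break down peroxides, which superoxide dismutases make from superoxide. Glutathione reductase and thioredoxin return the oxidised partners to their reduced state, and aldehyde dehydrogenases and aldo-keto reductases oxidise or reduce reactive carbonyls. Many of these genes are known targets of the transcription factor NRF2, which binds antioxidant response elements, while cyclic AMP acts on genes partly through the cyclic AMP response element.

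The upstream sequences of the 5 members with the largest called changes from 0 h, leaving out Gstm3, whose called probe set can match its close copies, are shown because the pulse acts through cyclic AMP and because the antioxidant response element is the best known control site of these enzymes. Each line gives the last 100 bases before an annotated start of the gene, 5′ to 3′ on the gene's strand, from RefSeq's mouse assembly GRCm38.p6. Capitals mark TGACG, the core of one arm of the palindromic cyclic AMP response element, read on either strand (as CGTCA on the other), and the E-box CACGTG, the site of clock factors.
Gsto1: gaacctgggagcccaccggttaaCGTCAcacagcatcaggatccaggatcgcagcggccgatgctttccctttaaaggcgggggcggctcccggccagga
Cryz: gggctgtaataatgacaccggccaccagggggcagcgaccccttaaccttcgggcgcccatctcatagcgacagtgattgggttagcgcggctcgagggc
Prdx4: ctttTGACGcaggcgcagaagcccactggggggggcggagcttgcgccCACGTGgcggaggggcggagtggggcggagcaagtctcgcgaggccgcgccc
Gstz1: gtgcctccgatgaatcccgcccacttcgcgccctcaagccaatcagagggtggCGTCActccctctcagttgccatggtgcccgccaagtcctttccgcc
Mgst2: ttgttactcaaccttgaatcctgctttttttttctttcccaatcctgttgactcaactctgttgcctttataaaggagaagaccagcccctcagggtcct
The stretches lie at chr19:47854873-47854972 (plus strand) for Gsto1, chr3:154596611-154596710 (plus) for Cryz, chrX:155338461-155338560 (minus) for Prdx4, chr12:87147065-87147164 (plus) for Gstz1 and chr3:51661079-51661178 (plus) for Mgst2. Cryz and Gstz1 each have a further annotated start that is not shown. The Mgst2 and Prdx4 stretches lie within the annotated spans of their genes (chr3:51636912-51682675 and chrX:155323918-155342272), not before the outermost start. In Gsto1 TGACG began 77 bases before the start, in Gstz1 47 bases and in Prdx4 96 bases, and Prdx4 also held the E-box 52 bases before its start. Cryz had an E-box 212 bases before its start, outside the stretch shown, and the Mgst2 stretch held neither motif.

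In the 250 bases before each start, 44 of the 52 genes had 54 windows in the RefSeq table. The antioxidant response element core, searched as TGACNNNGC on both strands, was in 6 of the 54 (11.1%), against 10.2% of all 32851 windows. It was in the windows of Aldh9a1, Gstm5, Mgst1 and Sod1 among the genes tested, and in none of those of the 5 genes above. The whole cyclic AMP response element TGACGTCA was in 0 of 54 (1.55% of all windows), and TGACG, which lies inside it, in 7 (13.0%, against 17.8%). CACGTG was in 5 of 54 (9.26%, against 6.02%). A match of letters is a description of the window and not a binding site.

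The deposited intensities had already been scaled to a common level on each array. Their mean, trimmed by 2% at either end, lay between 500.28 and 500.35 on every array. This follows from the scaling and does not show that the arrays were alike. The medians ran from 166.8 to 200.65. The 3′ to 5′ ratio of the actin control, a sign of RNA integrity, ranged from 1.11 to 1.73, from 1.11 to 1.35 in experiment 2 and from 1.44 to 1.73 in experiment 1. Its mean by time point ranged from 1.36 at 12 h to 1.51 at 0 h and 6 h. All 14 fibroblast markers tested passed the filter on dim probe sets, at a median brightness percentile of 99.0 (Vim was lowest, at 46.0), whereas 1 of 7 hepatocyte markers and 2 of 6 macrophage markers did so. The deposited intensities summed over the 14 fibroblast markers lay between 125598.7 and 129482.5 at 0 h, between 130676.5 and 142258.5 at 6 h and between 154554.2 and 164432.7 at 48 h. At 6 h Col3a1 (0.73 ± 0.18) and Pdgfra (0.54 ± 0.10) were called higher and Thy1 (−1.38 ± 0.20) lower, and at 48 h 5 of the 14 were called higher and Thy1 lower. The part of these changes in those of the members was not tested.

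The filter kept 7453 probe sets whose mean log2 intensity over all arrays was at or above 6.77. Among them were 52 member probe sets of 40 genes, and the other 22 member probe sets were not tested. The dimmest member kept was Akr1c13, at a mean of 6.86, and the brightest left out was an Aldh1a1 probe set, at 6.64. 12 genes had no probe set past the filter, among them Aldh1a1, Aldh1a2 and Aldh1a3, which make retinoic acid, the alpha class transferases Gsta1 and Gsta3, and Gpx5. Changes below are differences of log2(intensity + 12.1) with their standard error, from 3 arrays a time point, and "called" means an adjusted p below 0.05 in limma over all 7453 probe sets.

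**Figure D1:**
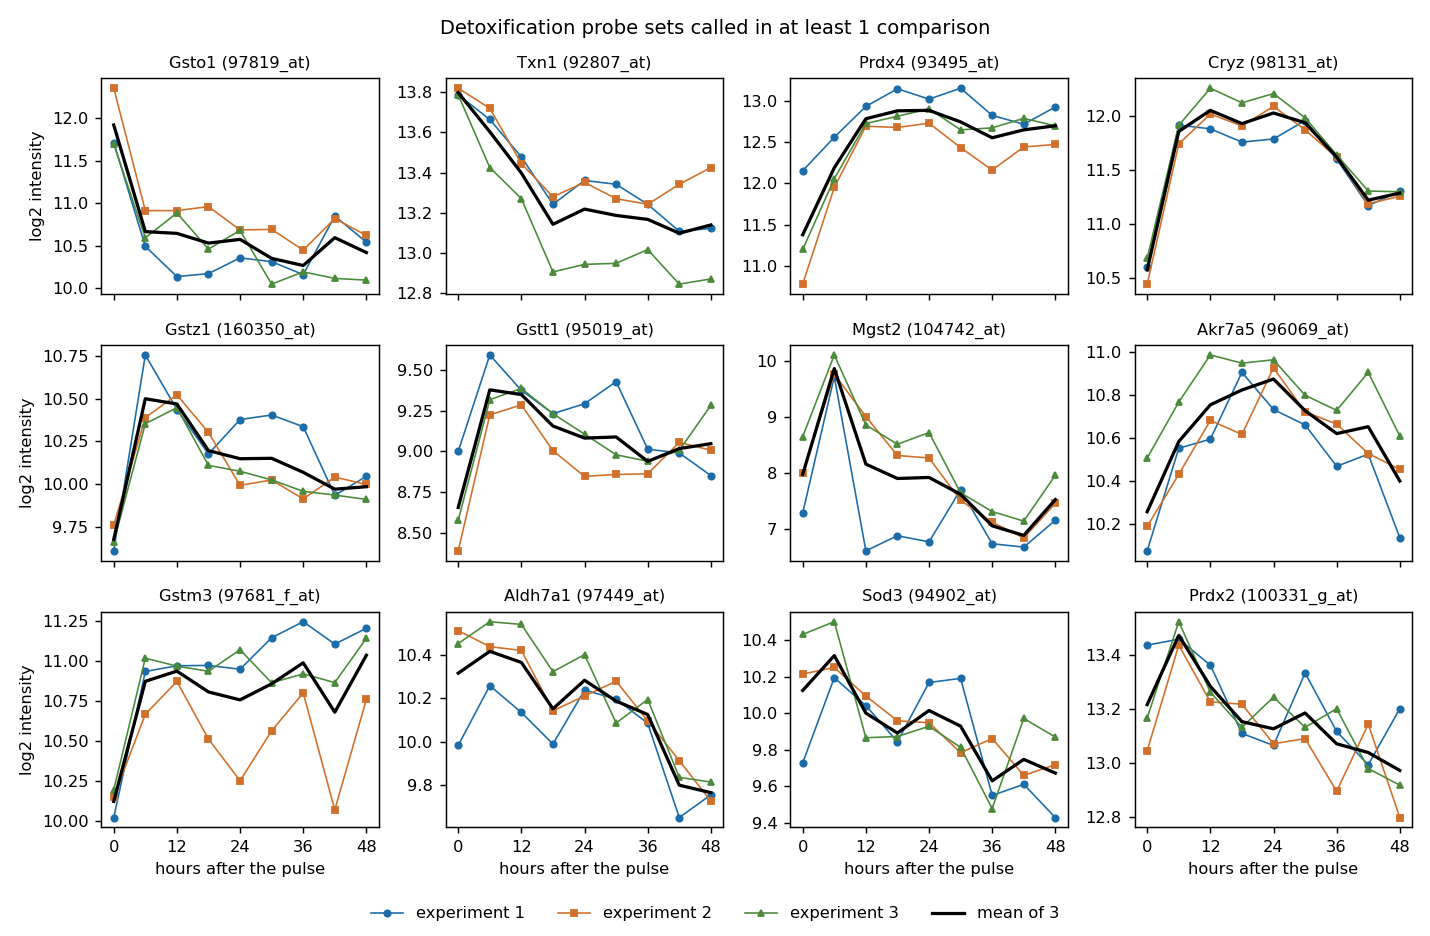
Log2 intensity (y axis, own scale in each panel) against hours after the pulse (x axis) for the 12 probe sets called in at least 1 comparison, with 1 thin line per experiment and the mean of 3 in black. Gsto1 is highest at 0 h and Cryz and Prdx4 lowest at 0 h in all 3 experiments, and Mgst2 has a peak at 6 h in each.

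From 0 h to 6 h, 5 of the 52 member probe sets were called, 4 higher (Cryz, Mgst2, Gstz1 and Gstt1) and 1 lower (Gsto1). That is against a background of 6.09% of all probe sets called (3.7% higher and 2.39% lower). Of the 52, 37 had a positive difference and 15 a negative one, with a median of 0.19, against a median of −0.00 over all probe sets. With the experiment number as a block (the replicate block), which takes out differences between experiments, 10 members were called (9 higher, 1 lower), against 16.7% of all probe sets (9.97% higher and 6.74% lower). At 24 h, 6 were called, 4 higher and 2 lower, against 6.92% of all (4.08% higher, 2.84% lower), and with the block 9 (18.6% of all). At 48 h 6 were called, 3 higher and 3 lower, against 7.9% (4.67% higher, 3.23% lower), and with the block 9 (19.8%). The members' medians at those times were 0.04 and 0.01, beside 0.01 and 0.00 over all probe sets. The 3 comparisons share the 0 h arrays.

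**Figure D2:**
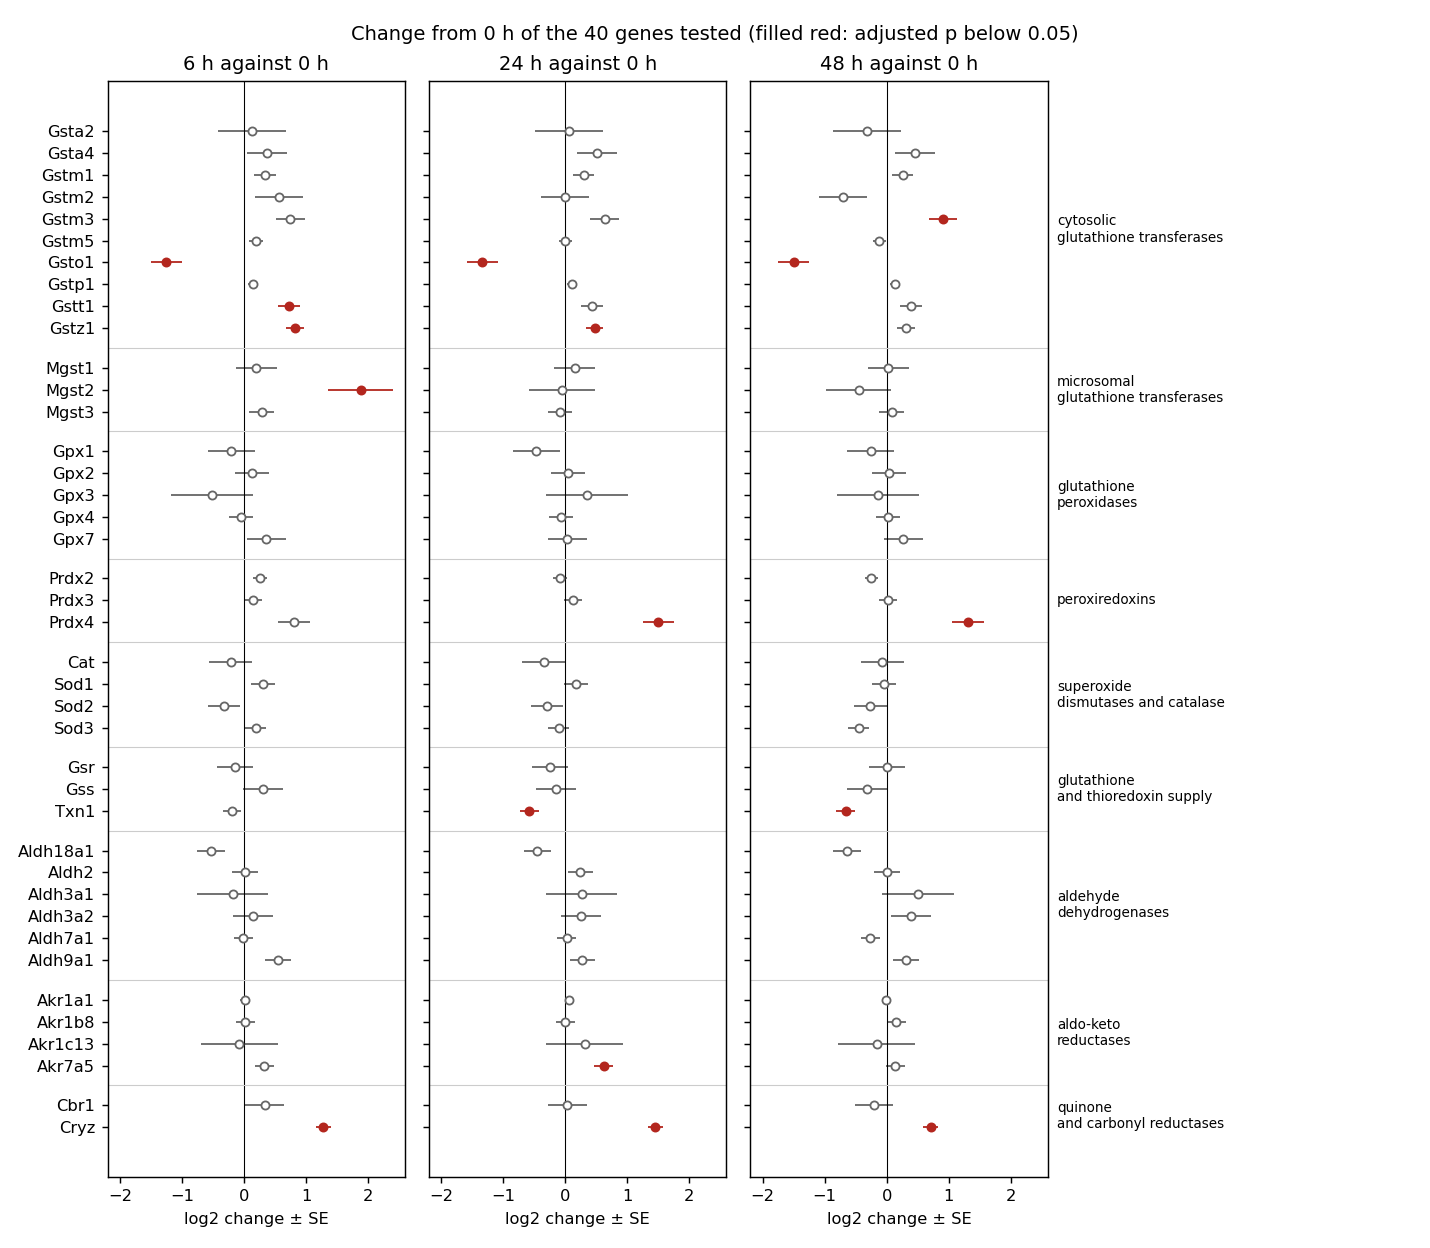
Log2 change from 0 h with its standard error (x axis) at 6 h, 24 h and 48 h for the 40 genes tested, each by its brightest probe set, grouped by family (y axis). Filled red points have an adjusted p below 0.05. These are Gsto1 and Cryz in all 3 panels, Gstz1 in the first 2, and Prdx4 and Txn1 in the last 2. Gstt1 and Mgst2 are red at 6 h alone, Akr7a5 at 24 h alone and Gstm3 at 48 h alone.

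Among the cytosolic glutathione transferases, 14 genes on the array and 10 tested, the omega class gene Gsto1 fell and the zeta and theta class genes Gstz1 and Gstt1 rose. Gsto1 makes an enzyme that reduces dehydroascorbate and protein-bound glutathione rather than mainly conjugating electrophiles. Its deposited intensity at 0 h was 3202.3, 5634.9 and 3327.2 in experiments 1 to 3, and at 6 h it was 1435.6, 1920.4 and 1546.4. At 24 h it was 1283.0, 1649.9 and 1668.6, and at 48 h 1458.8, 1576.3 and 1104.8. All 3 arrays at 0 h lay above the other 24, whose highest value was 1961.9, and of the 52 members Gsto1 alone did this (2.33% of all probe sets). The log2 change was −1.25 ± 0.25 at 6 h (adjusted p = 0.00256), −1.34 ± 0.25 at 24 h (0.00135) and −1.50 ± 0.25 at 48 h (0.000332), the last a 2.82-fold lower level. Without experiment 3 the change at 6 h was −1.32 and its adjusted p 0.0597.

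Gstz1 makes maleylacetoacetate isomerase, an enzyme of tyrosine breakdown. Its intensity was 762.7, 829.7 and 789.2 at 0 h, 1710.1, 1328.4 and 1306.0 at 6 h, 1302.3, 1023.9 and 1090.5 at 24 h and 1039.3, 1029.1 and 960.3 at 48 h. The 0 h arrays all lay below the other 24, the lowest of which was 954.3. This held for 2 of the 52 members, Gstz1 and Cryz (2.88% of all probe sets). The change was 0.82 ± 0.14 at 6 h (adjusted p = 0.000598) and 0.47 ± 0.14 at 24 h (0.0453). From 6 h to 48 h Gstz1 then fell by 0.28 ± 0.07 log2 units per day (adjusted p = 0.0128). The 6 h call was lost without experiment 3 (0.88, adjusted p = 0.0576) and the 24 h call without any 1 experiment (0.33, 0.59 and 0.50 without experiments 1, 2 and 3), with no filter (adjusted p = 0.0597) and without the intensity trend in eBayes (0.0533), as was the slope without experiment 2 or 3 (−0.26 and −0.27) and from 12 h on (−0.26, 0.0832).

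Gstt1, a theta class transferase that acts on small halogenated compounds, had intensities of 494.6, 306.2 and 358.9 at 0 h and 761.6, 583.7 and 633.4 at 6 h. Its change at 6 h was 0.72 ± 0.17 (adjusted p = 0.0113), and 0.67 and 0.70 without experiment 2 or 3, then with adjusted p = 0.163 and 0.264. At 24 h the change was 0.43 ± 0.17, which was called with the replicate block (adjusted p = 0.0355) and not without it (0.161). Gstp1, the pi class gene, ranged from 5461.4 to 6911.8 over the 27 arrays with a median of 6059.9, and was called in no comparison, with or without the block.

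The mu class genes Gstm1, Gstm2, Gstm3 and Gstm5 lie in a cluster of close copies, and the probe sets whose names end in _f_at match several members of a family, so their values are uncertain as to the gene. The Gstm3 probe set 97681_f_at had intensities of 1008.1, 1118.4 and 1166.6 at 0 h, 1946.3, 1617.9 and 2073.0 at 6 h and 2303.3, 1734.8 and 2277.6 at 48 h. The change at 48 h was 0.91 ± 0.23 (adjusted p = 0.0136), and it was not called without experiment 1 (0.78, adjusted p = 0.120) or 3 (0.89, 0.265). At 6 h it was 0.75 ± 0.23, with adjusted p = 0.0534, and 0.00100 with the replicate block. The other Gstm3 probe set, 97682_r_at, gave −0.29 ± 0.23 at 48 h and was not called. The 2 probe sets of Gstm2 had opposite signs at 6 h, 0.57 ± 0.39 for 93009_at and −0.57 ± 0.35 for 161357_r_at, neither of them called. Under the block, 161357_r_at was called lower at 24 h (−0.80, adjusted p = 0.0144) and 48 h (−0.64, 0.0481), and the Gstm1 probe set 93543_f_at higher at 6 h (0.34, 0.0317). None of these 3 was called without it.

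**Figure D3:**
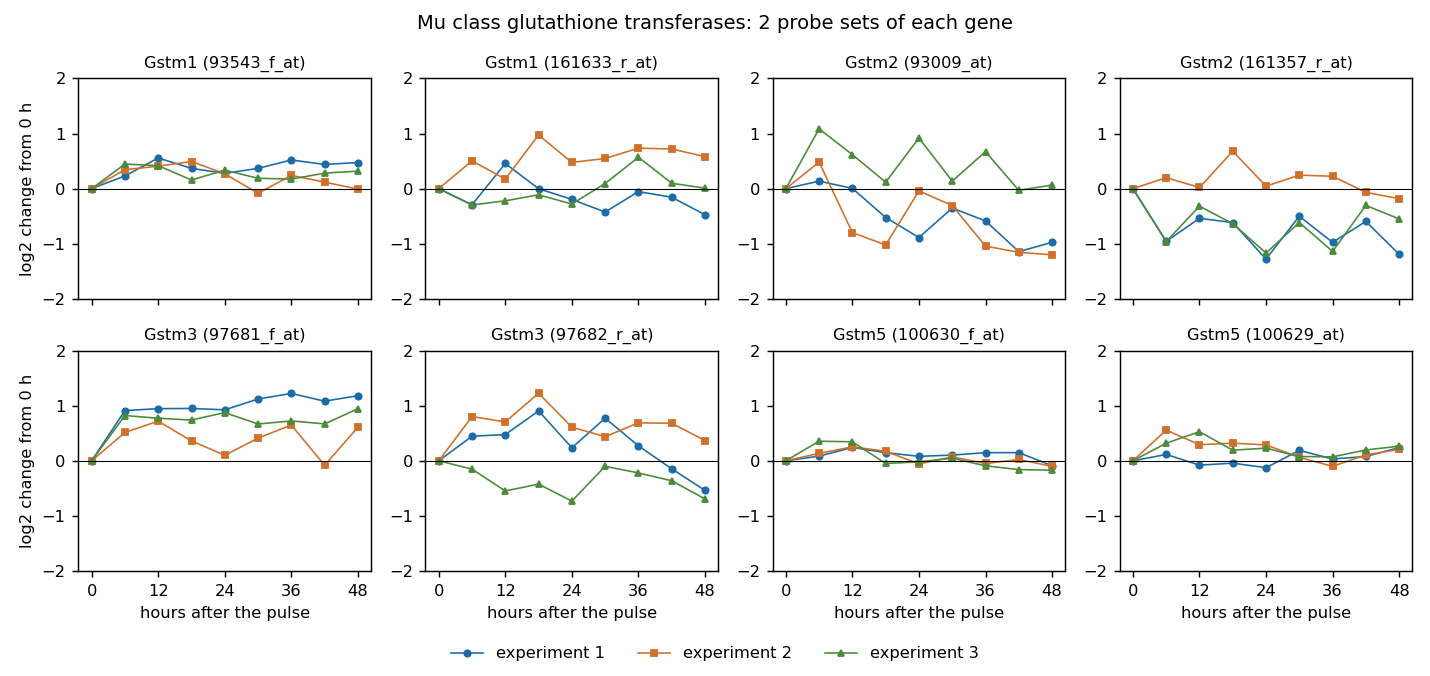
Log2 change from the same experiment's 0 h array (y axis) against hours after the pulse (x axis) for 2 probe sets of each of 4 mu class genes, 1 line per experiment. The Gstm3 probe set 97681_f_at lies above 0 at 6 h and at 48 h in all 3 experiments, while 97682_r_at lies on both sides, and the 2 Gstm2 probe sets differ in direction at 6 h on average.

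Of the microsomal transferases Mgst1, Mgst2 and Mgst3, Mgst2 changed. It makes a membrane enzyme that joins glutathione to leukotriene A4. Its probe set 104742_at read 156.1, 228.8 and 381.5 at 0 h and 831.2, 865.7 and 1110.6 at 6 h. By 12 h it read 95.7, 498.8 and 437.1, and at 48 h 139.3, 156.0 and 229.3. All 3 arrays at 6 h lay above the other 24, the highest of which was 498.8. Of the 52 members, Mgst2 and Prdx2 did this (0.51% of all probe sets). The change from 0 h was 1.89 ± 0.53 at 6 h, 3.70-fold (adjusted p = 0.0315). The slope from 6 h to 48 h was −1.21 ± 0.27 log2 units per day (adjusted p = 0.00578). The other Mgst2 probe set, 161865_r_at, was too dim to pass the filter and was not tested. It read 136.9, 11.2 and 83.2 at 0 h and 79.5, 31.0 and 6.8 at 6 h, and so did not show the rise.

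The rise of Mgst2 was 2.43, 1.77 and 1.46 in experiments 1 to 3. The call at 6 h was lost without experiment 2 (1.93, adjusted p = 0.301) or 3 (2.08, 0.188) and with no filter (1.89, 0.0517), and so was that of the slope (−1.04 and −1.07). The slope rested in part on the 6 h arrays, since from 12 h on it was −0.84 (adjusted p = 0.163). At 12 h experiment 1 was already below its own 0 h value while the other two were above theirs. Mgst3, a related enzyme of the same family, ranged from 1794.6 to 3124.7 with a median of 2346.6 and was called in no comparison.

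Of the peroxide-removing enzymes, Prdx4 rose. It is the peroxiredoxin of the endoplasmic reticulum, where it removes hydrogen peroxide and passes oxidising equivalents to protein disulfide isomerases. Its intensity was 4574.1, 1766.3 and 2360.1 at 0 h, 5846.4, 3954.4 and 4274.3 at 6 h, 8115.6, 6825.8 and 7369.8 at 24 h and 7351.6, 5702.0 and 6499.1 at 48 h. Experiment 1 began higher than the other two, so the 0 h and 6 h groups overlapped across experiments, although each experiment rose on its own by 0.40, 1.17 and 0.85. The change at 6 h was 0.81 ± 0.25, with adjusted p = 0.0621, and 0.000388 with the replicate block. At 24 h it was 1.50 ± 0.25 (adjusted p = 0.000479), 2.83-fold, and at 48 h 1.32 ± 0.25 (0.00156). Without experiment 3 these were 1.40 and 1.22, with adjusted p = 0.114 and 0.177.

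Prdx2, a cytosolic peroxiredoxin, read 10304.0, 11713.1 and 11256.1 at 6 h and 8820.5, 7325.0 and 7569.5 at 48 h on its probe set 100331_g_at. It was highest at 6 h and had a slope of −0.20 ± 0.05 per day (adjusted p = 0.0112), which was −0.15 and −0.19 without experiment 2 or 3 and then not called (adjusted p = 0.162 and 0.219). From 12 h on the slope was −0.16 (adjusted p = 0.169). The other Prdx2 probe set, 99608_at, was dimmer, at 169.5, 135.0 and 129.4 at 6 h and 217.1, 163.5 and 203.8 at 48 h, with a slope of the opposite sign, 0.29 ± 0.15, that was not called (adjusted p = 0.276, and 0.167 with the block). Prdx3, the mitochondrial enzyme, ranged from 1750.2 to 2586.3 with a median of 2198.1 and was not called.

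None of the 5 glutathione peroxidases tested was called from 0 h, over the 9 time points or in the slope, with or without the block. Gpx4, which reduces lipid hydroperoxides in membranes, ranged from 818.4 to 1483.1 with a median of 1080.6. Gpx1, the main cytosolic form, read 364.3 to 1488.2 with a median of 713.3, and its 9 arrays of experiment 2 all lay above the other 18, as described further below. Gpx7, which had the smallest p of the family in the test over time, had adjusted p = 0.979 there.

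Sod1, the cytosolic superoxide dismutase, read 5052.3, 4079.4 and 5237.0 at 0 h, 5873.6, 4920.1 and 5765.4 at 6 h and 5388.1, 3377.4 and 4397.6 at 48 h, and these groups overlapped. Sod2, the mitochondrial enzyme, ranged from 146.9 to 464.3 with a median of 284.9. Catalase was read by 2 probe sets, which had opposite signs at 6 h, 0.30 ± 0.22 and −0.21 ± 0.34. Sod1, Sod2 and Cat were not called from 0 h or over the 9 time points, and the slope of Sod1 was called with the block alone (−0.16, adjusted p = 0.0447 against 0.321). Sod3, the secreted extracellular form, fell slowly. It read 1154.5, 1196.7 and 1443.8 at 6 h and 684.6, 842.2 and 932.3 at 48 h, and its slope was −0.33 ± 0.07 per day (adjusted p = 0.00631). The slope was −0.34 and −0.33 without experiment 2 or 3, with adjusted p = 0.0994 and 0.0682, and −0.29 from 12 h on (0.0847).

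In the supply of reducing partners, Txn1 fell, and the glutathione enzymes were not called without the block. Txn1 is the cytosolic thioredoxin, which reduces peroxiredoxins and ribonucleotide reductase. Its intensity was 11943.0, 14537.6 and 13220.1 at 0 h, 12104.4, 13564.0 and 10931.6 at 6 h, 9995.4, 10496.7 and 7600.4 at 24 h and 8549.3, 11728.5 and 7385.0 at 48 h. The 24 h and 48 h groups lay wholly below the 0 h group, a separation whose share over all probe sets was not counted. The change was −0.19 ± 0.15 at 6 h (adjusted p = 0.592), −0.58 ± 0.15 at 24 h (0.0199) and −0.66 ± 0.15 at 48 h (0.00726). The 24 h call was lost without any 1 experiment (−0.66, −0.62 and −0.45 without experiments 1, 2 and 3), with the deposited scaling (−0.51, adjusted p = 0.0511) and with arrays centred on their medians (−0.52, 0.0731). The 48 h call was lost without experiment 1 (−0.66, adjusted p = 0.0943).

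Gsr, glutathione reductase, read 270.9, 535.0 and 632.5 at 0 h and 413.6, 496.7 and 491.3 at 48 h, and the range at 0 h covered that at 48 h. Gss, glutathione synthetase, read 540.8, 677.4 and 804.5 at 0 h, 662.5, 954.3 and 951.0 at 6 h and 372.8, 556.7 and 792.7 at 48 h on its probe set 101425_at. Over the 9 time points its adjusted p was 0.963, and 0.0464 with the replicate block, which also called its slope of −0.31 ± 0.15 per day (0.0128, against 0.258). On its other probe set, 162246_r_at, the slope was 0.08 ± 0.15 and was not called with the block either (adjusted p = 0.852, and 0.760 with it).

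Of the aldehyde dehydrogenases, 10 genes on the array and 6 tested, Aldh7a1 fell late. It makes the enzyme that oxidises the semialdehyde formed in lysine breakdown. The probe set 97449_at read 984.1, 1435.7 and 1392.7 at 0 h and 847.8, 845.1 and 899.3 at 48 h, a change of −0.55 ± 0.14 (adjusted p = 0.0164). Its slope was −0.32 ± 0.06 per day (adjusted p = 0.00300). The 48 h change was −0.43 and −0.50 without experiment 2 or 3 and was then not called (adjusted p = 0.353 and 0.265), and neither was the slope (−0.32 and −0.25, with 0.0858 and 0.145). Arrays centred on their medians also ended the 48 h call (−0.54, adjusted p = 0.0989). The other probe set tested, 97450_s_at, gave −0.26 ± 0.16 at 48 h and was not called.

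The other aldehyde dehydrogenases were called from 0 h with the replicate block or not at all. With the block, Aldh9a1 (96243_f_at), which oxidises aminobutyraldehyde, was higher at 6 h (0.54, adjusted p = 0.00342, against 0.140 without). The name of this probe set, the only one of Aldh9a1, ends in _f_at, so its value is uncertain as to the gene. Aldh18a1, which makes the proline precursor pyrroline-5-carboxylate, was lower at 48 h (−0.64, 0.0211 against 0.0874). The 99559_at probe set of Aldh3a2, the fatty aldehyde dehydrogenase, was higher at 48 h (0.39, 0.0403 against 0.591). Aldh2, the mitochondrial acetaldehyde dehydrogenase, was called on none of its 3 probe sets, and on 96058_s_at it ranged from 785.9 to 1594.9 with a median of 1208.2.

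Akr7a5, an aldo-keto reductase that reduces succinic semialdehyde and aflatoxin dialdehyde, rose by 24 h. It read 1040.4, 1151.7 and 1446.4 at 0 h, 1656.8, 1912.2 and 2005.2 at 24 h and 1101.4, 1417.5 and 1571.9 at 48 h. The 24 h arrays lay above those at 0 h and at 48 h, but how many of all probe sets did so was not counted. The change at 24 h was 0.62 ± 0.15 (adjusted p = 0.0154), and it was not called without any 1 experiment (0.60, 0.56 and 0.69, with adjusted p = 0.0733, 0.241 and 0.0539) or with arrays centred on their medians (0.61, 0.0946). Under the block it was also called higher at 6 h (0.33, adjusted p = 0.0286) and lower at 48 h than at 24 h (−0.47, 0.0275). Akr1a1, the broad aldehyde reductase, ranged from 8648.2 to 11054.0 with a median of 9563.9, Akr1b8 from 2328.5 to 3791.8, and neither was called.

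Cryz, or zeta-crystallin, an NADPH-dependent quinone reductase that also binds RNA, had the smallest p of the 52 members over the 9 time points (adjusted p = 5.30e-08). It read 1504.0, 1372.1 and 1641.8 at 0 h and 3839.7, 3446.8 and 3850.9 at 6 h. At 24 h it read 3450.9, 4377.6 and 4729.4, and at 48 h 2461.5, 2468.7 and 2542.4. Every array after 0 h lay above every array at 0 h (2.88% of all probe sets). The 48 h arrays lay below all of those at 6 h and 24 h, for which the share over all probe sets was not counted. The change was 1.28 ± 0.12 at 6 h (2.43-fold, adjusted p = 3.47e-07), 1.45 ± 0.12 at 24 h (2.74-fold, 2.99e-08) and 0.71 ± 0.12 at 48 h (1.64-fold, 0.000317). Without experiment 2 the 48 h change was 0.66 (adjusted p = 0.0528).

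Between 24 h and 48 h Cryz fell by 0.74 ± 0.12 (adjusted p = 0.0168) and was 1 of the 2 probe sets called in that comparison, 0.0268% of all. The block called 3 members, Cryz, Aldh7a1 (97449_at, −0.52, adjusted p = 0.0258) and Akr7a5, against 0.577% of all. The Cryz difference was −0.70 and −0.66 without experiment 2 or 3 and then not called (adjusted p = 0.999 and 1.00), and likewise with the deposited scaling (−0.73, 0.0709) with arrays centred on their medians (−0.74, 0.368) and without the intensity trend (−0.74, 0.0510). Its slope over 6 h to 48 h was −0.42 ± 0.09 per day (adjusted p = 0.00329), or −0.43 and −0.37 without experiment 2 or 3 (0.0533 and 0.0828). Cbr1, a carbonyl reductase, read 540.8, 376.0 and 404.6 at 0 h and 744.0, 435.6 and 572.0 at 6 h, 0.34 ± 0.31, and was called in the slope with the block alone (−0.25, adjusted p = 0.0292).

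Over the 9 time points together, 7 members were called, Cryz, Gsto1 (adjusted p = 0.00282), Prdx4 (0.00435), Gstz1 (0.00759), Aldh7a1 97449_at (0.0169), Mgst2 (0.0177) and Txn1 (0.0196), against 7.3% of all probe sets. Under the replicate block 16 were called, against 26.4% of all. The count was 1 when experiment 3 was left out, 2 for experiment 2 and 6 for experiment 1. The shares of all probe sets called in these refits are not given here, so the counts do not set the members apart.

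**Figure D4:**
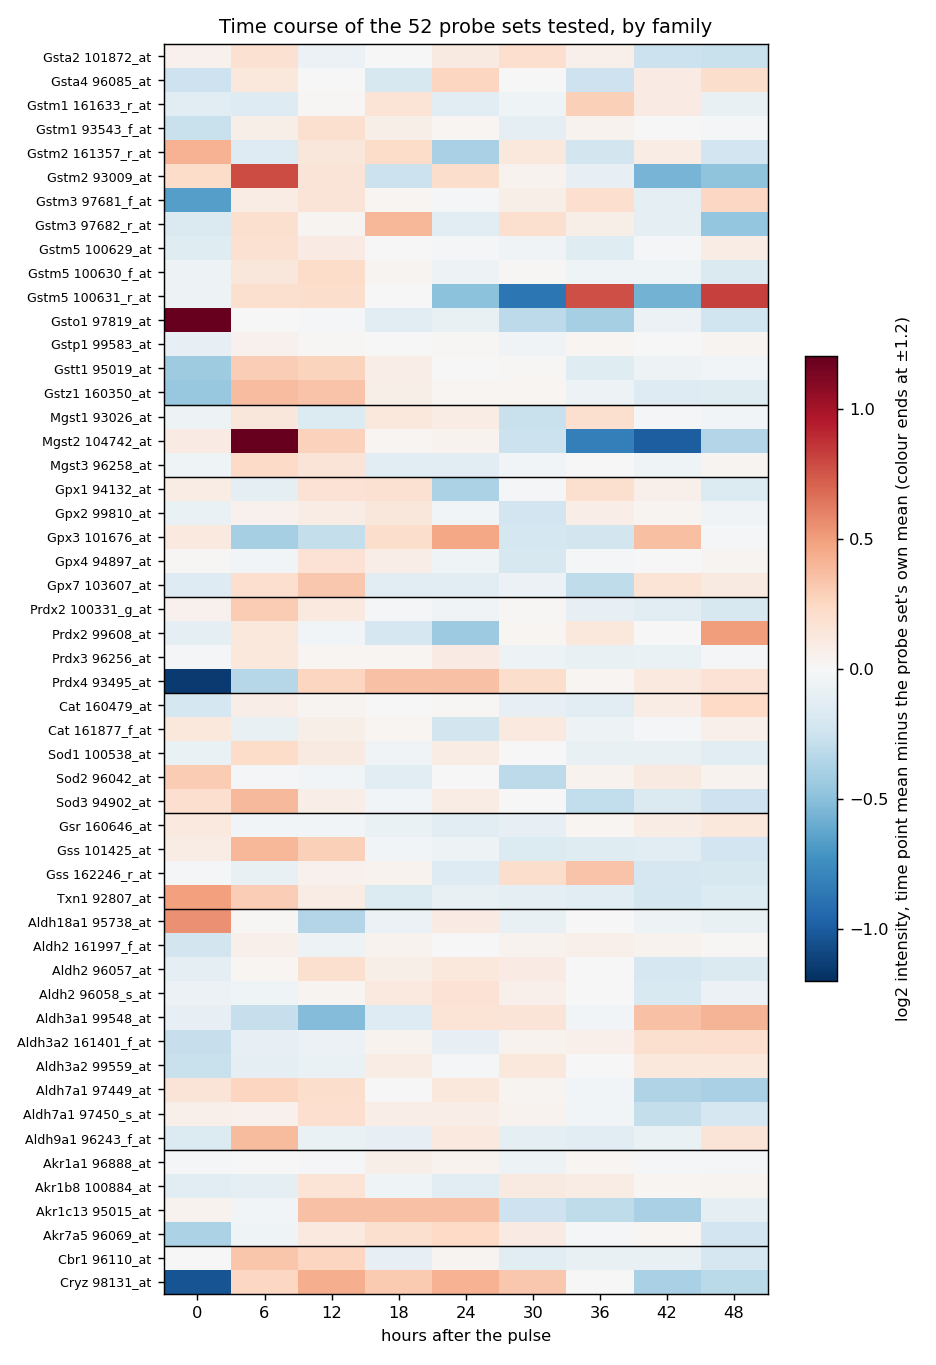
Time point means of log2 intensity for the 52 member probe sets (rows, by family, families divided by lines) against hours after the pulse (columns), each minus the probe set's own mean, red above and blue below. The 0 h column holds the strongest red in Gsto1 and the strongest blue in Prdx4, and the 6 h column the strongest red in Mgst2; the scale ends at ±1.2.

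By the time of their extreme, 16 of the 52 members (30.8%) had their highest mean at 6 h, beside 15.0% of all probe sets, and 2 (3.85%) their lowest there, beside 15.6%. At 0 h 6 members were highest and 15 lowest (11.5% and 28.8%, beside 20.8% and 23.9% of all). These are counts of means and were not tested. From 6 h to 48 h the slope was negative in 36 of the 52 members and positive in 16, with a median of −0.09 log2 units per day, beside 0.01 over all probe sets. Called slopes numbered 6, all of them falls (Mgst2, Cryz, Sod3, Aldh7a1 97449_at, Gstz1 and Prdx2), against 6.13% of all probe sets called and 3.3% called as falls. The replicate block called 14 falls and 1 rise, against 17.1% of all (9.02% falls, 8.05% rises). The riser was Aldh3a1 (99548_at, 0.39 per day, adjusted p = 0.0229 against 0.448 without the block), and the falls then included Gstm2 (93009_at, −0.48), Gstt1 (−0.22) and Txn1 (−0.19). Without experiment 2 or 3 no member's slope was called by limma (against 8 without experiment 1), counts given without the shares over all probe sets. Directly between 6 h and 48 h, 6 members were called, all lower at 48 h, against 3.48% of all (1.56% higher, 1.92% lower), and with the block 12 (14.6% of all). The macrophage marker Cd68 fell over the same hours, with a slope of −0.51 ± 0.09 per day (adjusted p = 0.000828) and a difference between 48 h and 6 h of −0.84 ± 0.17 (adjusted p = 0.00699). Csf1r, the other marker of that list past the filter, was not called in either, and the 6 macrophage markers summed to between 529.2 and 549.9 at 6 h and between 296.0 and 697.3 at 48 h. Cyp2e1, the 1 hepatocyte marker past the filter, was −0.85 ± 0.28 at 48 h against 0 h (adjusted p = 0.0709, and 0.00279 with the block). Their part in the members' falls was not tested.

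No member had a 24 h rhythm over 6 h to 48 h by limma's test, with or without the block, and neither did any other probe set at an adjusted p below 0.05 (0% of all). At an unadjusted p below 0.05 there was 1 member without the block (Mgst2, amplitude 0.52 log2 units) and 5 with it. Over all probe sets these counts were 248 and 783, where 372.65 would on average lie below that p if no probe set had a rhythm. That number holds only for p-values that are right in the absence of a rhythm. Arrays of the same experiment correlated, as given below, and the fit without the block leaves this in its spread. Whether rhythms are present cannot be decided from these counts. With the block the smallest p was that of Gpx1, with an amplitude of 0.25 and a peak at 13.3 h (adjusted p = 0.280).

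The level of several members differed between experiments more than over time. On the normalised log2 scale, in experiment 1 the 9 arrays of Aldh3a2 (99559_at) all lay above the other 18 and those of Cat (161877_f_at) all lay below (1.96% and 1.18% of all probe sets). The other Cat probe set, 160479_at, went the other way, with means of 8.50, 8.23 and 8.38 in experiments 1 to 3. The level of Cat in experiment 1 is therefore uncertain. In experiment 2 those of Gpx1 lay above and those of Aldh2 (96058_s_at) below (0.228% and 0.134% of all), and in experiment 3 there was no such member (0.121% and 0.0134% of all). Aldh3a1, which oxidises aromatic and medium-chain aldehydes, had mean log2 intensities of 10.86, 9.42 and 10.11 in experiments 1 to 3. The actin 3′ to 5′ ratio also differed between experiments 1 and 2, as given above, and its part in these levels was not tested.

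**Figure D5:**
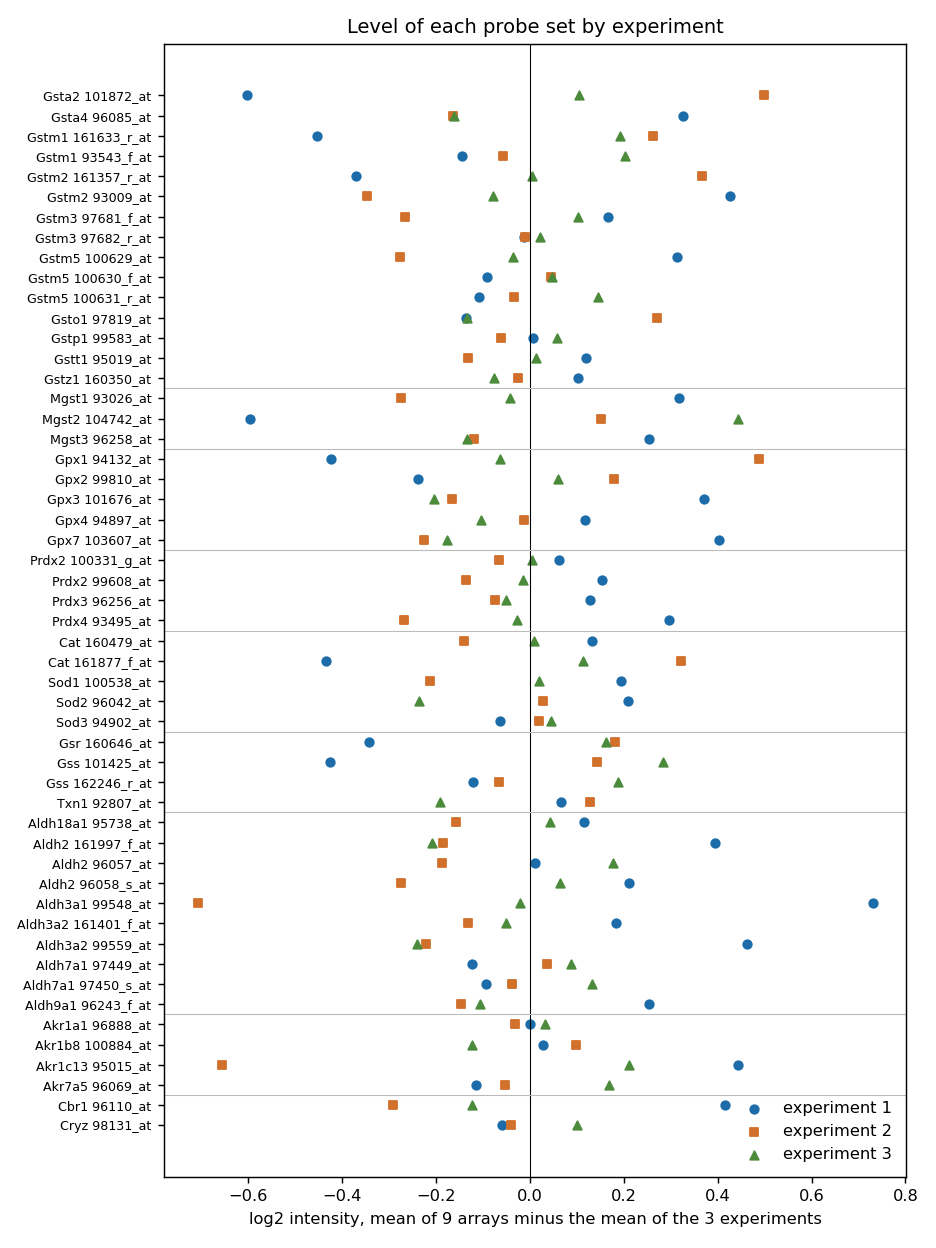
Mean log2 intensity of the 9 arrays of each experiment minus the mean of the 3 experiments (x axis) for the 52 member probe sets (y axis, by family). Aldh3a1 spreads most, with experiment 1 to the right and experiment 2 to the left of 0, whereas the points of Akr1a1, Gstp1 and Prdx2 100331_g_at lie close together.

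Other genes of glutathione, thioredoxin and NRF2 biology formed a list of 61, of which 45 were on the array and 37 passed the filter. Each gene of this list and of the marker lists was read by its brightest probe set alone. Whether other probe sets of the same gene, including any of Txnip, moved alike was not examined here. At 6 h 4 were higher and 3 lower, against 6.09% of all probe sets called. The falls were Srxn1 (−2.88 ± 0.23), the sulfiredoxin that repairs overoxidised peroxiredoxins, Gclc (−1.45 ± 0.33), the catalytic subunit of the first enzyme of glutathione synthesis, and Txnrd1 (−1.40 ± 0.18), the reductase of Txn1. The rises were Txnip (2.38 ± 0.36), which binds and inhibits thioredoxin, Sesn1 (1.00 ± 0.16), Idh1 (0.60 ± 0.14) and Adh5 (0.33 ± 0.09). At 48 h Srxn1 (−3.01 ± 0.23), Txnrd1 (−0.85 ± 0.18), the quinone reductase Nqo1 (−1.81 ± 0.51) and Xdh (−1.52 ± 0.33) were lower and Txnip (2.08 ± 0.36) and Sesn1 (0.69 ± 0.16) higher. At 48 h 7.9% of all probe sets were called. At 24 h 3 of the list were called in each direction, against 6.92% of all. With the replicate block 6 were higher and 6 lower at 6 h, 4 and 8 at 24 h, and 3 and 9 at 48 h, against 16.7%, 18.6% and 19.8% of all.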

How the data were processed

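The authors deposited linear probe set intensities that had been scaled to a common level on each array, by an algorithm not given in the sources used here. To each intensity 12.1 was added (the 10th percentile over the whole table) before taking log2, and arrays were quantile normalized. Folds refer to these values, so changes of dim probe sets come out too small. The 66 control probe sets were left out, as were those whose mean log2 value was under the 40th percentile. limma 3.58.1 in R 4.3.3 (lmFit, eBayes with an intensity trend, Benjamini-Hochberg adjustment, threshold 0.05) was fitted to all 7453 remaining probe sets: time means on the 27 arrays, and a slope with 24 h cosine and sine terms on the 24 arrays from 6 h. The fits were also run on simulated data, whose outcome is not given here, so nothing above rests on it. Detection calls were not used here, and precision is limited by the number of arrays.

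Members and lists were chosen with earlier results of these data known. Named were every member called, the brightest and the smallest-p member of each family, and Sod1, Sod2, Cat, Gsr, Gss and Txn1. Others were named after their values were seen. The experiment number paired the arrays: deviations from the time means correlated in all 36 pairs of each experiment (r from 0.426 to 0.642, 0.349 to 0.599 and 0.135 to 0.482). All 74 member probe sets matched RefSeq genes.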

Additional observations from a re-analysis of the deposited data

Results flagged for a closer look

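For 6 members the change from 0 h differed between 6 h and 48 h, by the limma contrast of the 2 time points (a comparison added after the data were seen, in which 3.48% of all probe sets were called). In each the 48 h level was the lower: Mgst2 by −2.34, Aldh7a1 (97449_at) by −0.65, Sod3 by −0.64, Cryz by −0.57, Gstz1 by −0.52 and Prdx2 (100331_g_at) by −0.50 log2 units, with adjusted p = 0.0134, 0.0109, 0.0370, 0.00793, 0.0443 and 0.0125. The other Prdx2 probe set, 99608_at, had a difference of 0.38 ± 0.29 (48 h minus 6 h), of the opposite sign, and was not called (adjusted p = 0.605). For Mgst2 the difference was −2.56, −2.30 and −2.14 in experiments 1 to 3. None of the 6 was called without experiment 2 or without experiment 3, and the difference compares 48 h with 6 h, so it does not rest on the 0 h arrays.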

How the results depend on the processing

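Of 635 refits of 55 calls and tests of named members, 540 kept their side of the threshold, 88 lost a call, 7 gained one and 0 reversed. The 55 include the test over the 9 time points of every named member, called or not. Those not called had no call to lose, so the 540 overstates how well the calls held. The value in that test is the highest minus the lowest time mean, which cannot reverse. With the replicate block the number of members called rose to 10 at 6 h, 3 for 48 h against 24 h, 16 over the 9 time points, 15 for the slope and 12 for 48 h against 6 h, and at 24 h and 48 h it was 9 each. The Cryz call for 48 h against 24 h was lost (0 members) with the deposited scaling, median centring and eBayes without the intensity trend. The slope fitted from 12 h called 2 members, and 48 h against 6 h with median centring called 3. Leaving out 1 experiment gave 1 to 6 members at 6 h (5 with all 3), 2 to 4 at 24 h (6), 3 to 5 at 48 h (6), 0 to 1 for 48 h against 24 h (1), 1 to 6 over the 9 time points (7), 0 to 8 for the slope (6), 0 to 0 for the rhythm and 0 to 5 for 48 h against 6 h (6). With 2 arrays a time point the fits have fewer samples. Apart from the replicate block, the shares of all probe sets called in these refits are not given. A lower count there is thus not a result about the members. Low signals could not be told from background here, which limits the 22 probe sets left out and the dim ones kept, such as Akr1c13.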
